A study of Oryza sativa with 7 samples.

Results

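The methylome of IR64 seedlings under desiccation was compared with that of IR64 control seedlings, cytosine by cytosine and then in 100 bp bins. A bin entered the comparison in a sequence context when at least 3 methylated cytosines (mCs) of that context were listed in both tables on chromosomes 1 to 12, and 1050235 bins did so in at least 1 context, of 1727000 bins with 3 or more mCs of a context in any of the 7 tables of the series. By context, 831185 bins were tested in CG, 527396 in CHG and 227450 in CHH, H standing for any base but G. IR64 is a rice (Oryza sativa) cultivar sensitive to drought and salinity. The desiccation seedlings had been laid on dry filter paper and the control seedlings kept in reverse osmosis water, both as whole seedlings of the unmodified cultivar. The other tables came from IR64 under salinity, Nagina 22 (N22, drought tolerant) under desiccation and control conditions, and Pokkali (salinity tolerant) under salinity and control conditions. Each condition had 1 whole genome bisulphite sequencing library, the control DNA having been pooled from 3 biological replicates, and whether the desiccation DNA was pooled is not given in the sources used here. No value below therefore has an error between replicates, and every test compares the reads of 2 libraries rather than 2 conditions.

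In plants, CG methylation is copied after replication by the maintenance methyltransferase MET1, which reads the symmetric site on the opposite strand. CHG sites are also symmetric and are maintained by chromomethylases in a loop with histone methylation. CHH sites are asymmetric and have to be methylated anew, by the RNA-directed pathway with DRM2 or by chromomethylases. In bisulphite sequencing an unmethylated cytosine is read as thymine, so that the methylation level is the percentage of reads that still show cytosine at a site.

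The IR64 desiccation table listed 16595141 mCs at a mean depth of 15.8 reads (median 11), and the IR64 control one listed 14905754 mCs at a mean depth of 16.2 reads (median 12). On chromosomes 1 to 12, 12059951 positions stood in both tables, which was 73.0% of the desiccation mCs and 81.2% of the control mCs. A further 4462484 positions were listed under desiccation alone and 2784183 in control alone, and their level in the other sample was unknown because only cytosines called methylated were listed. A total of 235 positions given in different contexts were left out, which left 6181983 CG, 3624378 CHG and 2253355 CHH cytosines.

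Most bins had nearly the same level in both samples. In CG, 91.4% of tested bins differed by less than 10 percentage points, in CHG 78.9% and in CHH 73.6%. A bin was called when its level differed by at least 20 points and the adjusted p of a two-sided Fisher's exact test, with Benjamini-Hochberg adjustment over all tested bins of the context, was at most 0.01. By this rule 301 CG bins were called (0.0362% of those tested), 43 CHG bins (0.00815%) and 884 CHH bins (0.389%), and 726 of 1159720 bins (0.0626%) when the 3 contexts were summed. In CG, 168 bins were higher under desiccation (0.0202% of tested bins) and 133 were lower (0.016%). In CHG, 12 were higher (0.00228%) and 31 lower (0.00588%). In CHH, 595 were higher (0.262%) and 289 lower (0.127%). The share of called bins that were higher was thus 55.8% in CG (95% Wilson interval 50.2 to 61.3), 27.9% in CHG (16.7 to 42.7) and 67.3% in CHH (64.1 to 70.3). The CG majority turned at a minimum depth of 10 reads per cytosine, where 44.4% of 205 called bins were higher. The difference threshold decided many calls, as 301 CG, 26 CHG and 504 CHH bins passed the adjusted p but differed by less than 20 points. Around it, the CG bin just inside had a difference of 20.04 points and the one just outside 19.96.

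These counts rest on reads that are not independent of each other. A read that crosses several cytosines of a bin was counted at each of them, so that p-values are too small and intervals cover counting error only. When each bin was instead represented by 1 cytosine per strand, only 1 CG, 2 CHG and 1 CHH bin were called. The sign of the difference stayed in 296 of the 301 CG bins, all 43 CHG bins and 850 of the 884 CHH bins. These reads are part of those that made the calls, so a kept sign was likely in advance and is no check of them. The called bins had more cytosines than the tested ones, with medians of 9 and 6 in CG, 8 and 5 in CHG and 13 and 6 in CHH.

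**Figure D1:**
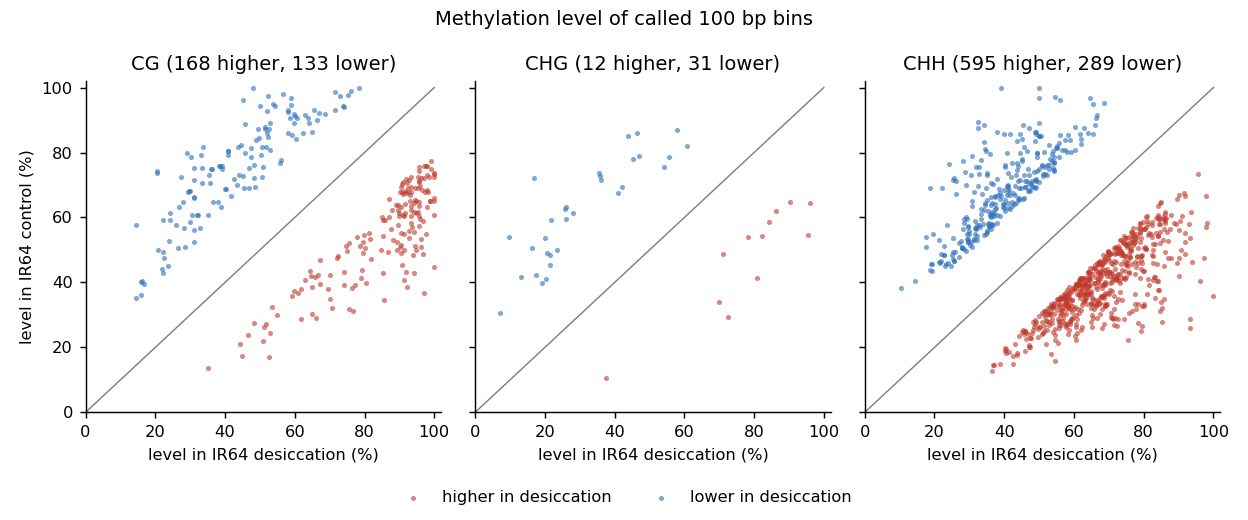
Methylation level (%) of each called bin in IR64 desiccation (horizontal) and IR64 control (vertical), 1 point per bin, with equal levels on the grey line and colour for direction. The 133 CG bins lower under desiccation have a median of 44.7% there, and the 168 higher ones crowd towards full methylation under desiccation, with a median of 90.7% (medians over bins also covered in salinity).

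The level over all shared cytosines hardly differed. The pooled CG level was 83.60% under desiccation (95% Wilson interval 83.60 to 83.61) and 83.80% in control (83.80 to 83.81). In CHG it was 62.85% and 63.51%, and in CHH 35.68% and 35.27%. The differences of -0.201, -0.654 and 0.413 points depended on a small class of very deep cytosines, those above the 99th percentile of depth in either library (67 reads under desiccation and 68 in control). In CG these were 1.01% of the shared mCs but held 15.3% of the reads under desiccation and 13.1% in control, at levels of 65.9% and 66.2%. Without them the CG level was 86.80% under desiccation and 86.45% in control, a difference of 0.351 in the other direction, and the CHG difference also changed sign, to 0.0987. Window by window, 329 of 379 windows of 1 Mb had a higher pooled CG level under desiccation than in control, with a median difference of 0.297 points, and 351 windows had a higher CHH level, with a median of 0.881 points. In CHG 194 windows were higher. The CG levels of chromosome 12 were 70.1% under desiccation and 73.2% in control, the widest gap of a chromosome in CG (-3.09 points), while the other 11 lay between -0.47 and 0.553 points.

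The starting level set the called bins apart from the genome. Fully methylated CG bins made up most of the genome: 84.2% of tested bins were at or above 80% in control, but only 18.9% of called bins were, and the call rate there was 0.00814%. Between 40 and 60% in control, 81 of 30495 CG bins were called (0.266%), 61 higher and 20 lower, and between 20 and 40%, 33 of 12500 (0.264%), 30 higher and 3 lower. The control level is part of the difference itself, so that bins low in control can only be called higher and bins near 100% only lower, and these counts are a description.

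The IR64 salinity sample was outside the comparison and gave another reading of the same bins. Of the 296 called CG bins that it covered, 31.4% lay at or above 80% in salinity, where 85.5% of the 771952 tested bins lay. From the lowest class of salinity level upwards, in steps of 20 points, the CG call rate was 0.159% (2 of 1258 bins), 0.285, 0.319, 0.125 and 0.0141%, so that it was highest at intermediate levels. In CHG the rate fell with each step, at 0.197% (3 of 1522 bins), 0.0731, 0.00943, 0.00799 and 0.000689%. In CHH it was 0.0229, 0.286, 0.583, 0.808 and 0.642%, highest between 60 and 80%. A call needs a gap of at least 20 points, which bins near full methylation in both compared samples cannot have. Salinity is another reading of the same bins, so these rates are a description as well.

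In the CG bins called higher, the median level was 90.7% under desiccation, 78.9% in salinity and 55.6% in control (n = 165 bins), beside 92.3%, 92.3% and 92.0% over all tested bins. In those called lower it was 44.7% under desiccation, 58.9% in salinity and 75.9% in control (n = 131). Salinity lay nearer to desiccation than to control in 66.1% of the higher and 61.1% of the lower CG bins, and in 49.9% of all tested bins. In the 31 CHG bins called lower, the medians were 26.0%, 39.1% and 62.7%, and salinity lay nearer to desiccation in 24 of them (77.4%), against 6 of the 12 called higher and 49.6% of all tested CHG bins. In CHH it did so in 46.1% of the higher and 51.6% of the lower bins, beside 49.8% of all. The called CG bins and the lower CHG bins had fewer reads in control, so counting error tends to be larger there. Calls chosen for a wide gap can then leave another reading nearer to desiccation, and nothing is read from these shares. The salinity level fell between those of the compared samples in 83.6% of the higher and 94.7% of the lower CG bins, beside 30.7% of all tested bins, but the calls were chosen for a wide gap between these samples, in which another reading is likely to fall, and nothing is read from this share. In CHH the salinity medians of the higher and lower bins were almost the same, at 52.7% and 53.4%, although desiccation and control stood at 67.8% and 39.4% in the 575 bins called higher, and at 39.7% and 68.5% in the 279 called lower. Salinity shares the cultivar with both samples, and its own library is also single.

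**Figure D2:**
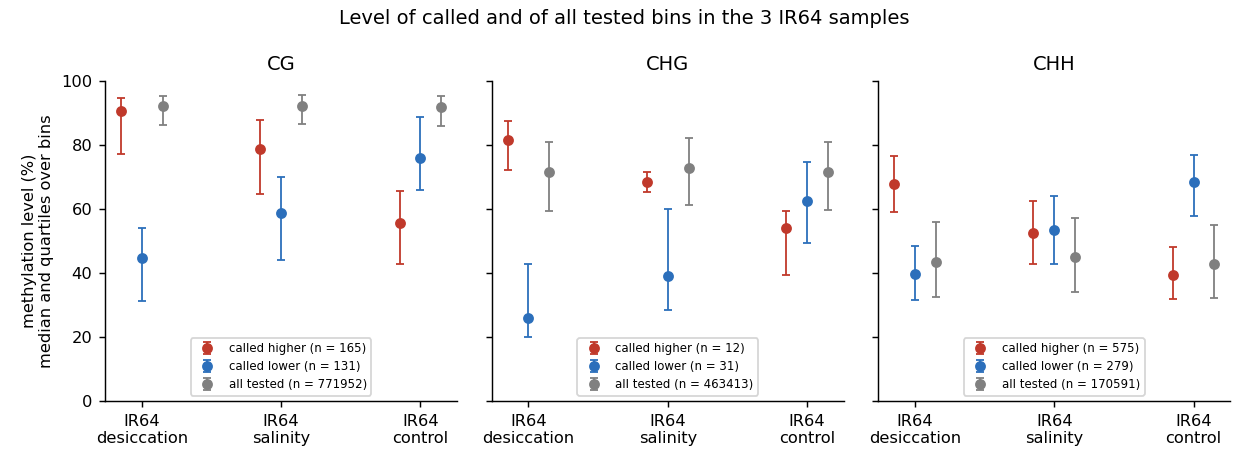
Median methylation level (%) with quartiles over bins in IR64 desiccation, salinity and control, for bins called higher, bins called lower and all tested bins, over cytosines listed in all 3 samples. In CHH the salinity medians of the 2 called sets are 52.7% and 53.4%, and in CG and CHG they lie apart. In CG and CHG the 2 sets also span different levels in the compared samples, so nothing is read from this.

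The strands gave a check within the same libraries. Each strand of a bin is read by its own set of reads, so bins were called from 1 strand alone and the difference was then read on the other strand where that had at least 10 reads in each library. In CG, 190 bins were called on the plus strand (0.0399% of tested) and 138 on the minus strand (0.0292%). The opposite strand could be read for 257 of these calls, and it had the same sign in 193, which was 75.1% (95% Wilson interval 69.5 to 80), beside 48.4% for all tested bins, where a difference of 0 counted as no match. The median difference was 33.6 points on the calling strand and 8.79 points in the same direction on the opposite one. The opposite strand differed by at least 20 points the same way in 63 calls and the other way in 3. A total of 14 CG bins were called independently on both strands, all with the same sign.

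CHG strand calls were far fewer. The plus strand gave 28 calls (0.00977%) and the minus strand 11 (0.00388%), and 27 of the 36 with reads on the opposite strand had the same sign (75%, 58.9 to 86.2), beside 49.8% for all tested bins. The share was lower with at least 5 shared mCs (16 of 27, 59.3%), after thinning to equal depth (11 of 18, 61.1%) and at a minimum depth of 10 (20 of 32, 62.5%). The 3 CHG bins called on both strands had the same sign.

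The CHH calls did not carry over to the opposite strand. There were 936 calls on the plus strand (0.691%) and 994 on the minus strand (0.739%), more than the 884 from both strands together. The opposite strand had the same sign in 760 of 1532 (49.6%, 47.1 to 52.1), beside 49.4% for all tested bins, and its median difference in the called direction was 0. It differed by at least 20 points the same way in 69 calls and the other way in 84. All 5 CHH bins called on both strands had opposite signs on the 2 strands. CHH sites are asymmetric, so that each strand of a bin holds its own cytosines. The median difference on the calling strand was 28.5 points in CHH, against 33.6 in CG.

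**Figure D3:**
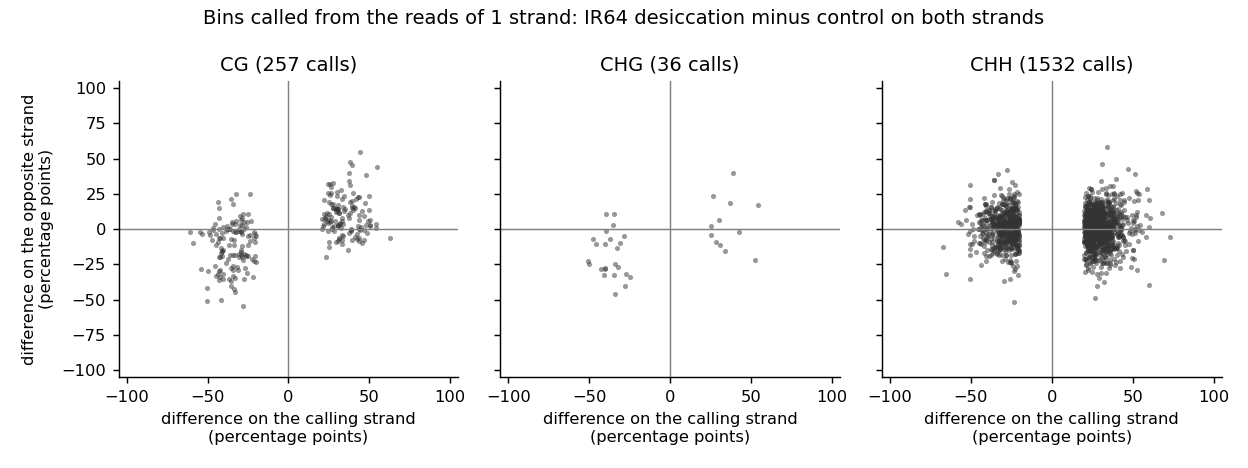
Difference in methylation level (IR64 desiccation minus control, percentage points) on the strand that gave the call (horizontal) and on the opposite strand (vertical), 1 point per call. The CG and CHG points lean along the diagonal, with 193 of 257 and 27 of 36 on the same side of 0, and the CHH points do not, with 760 of 1532.

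CG and CHG moved together. Of the 301 called CG bins, 141 were also tested in CHG, and 130 of them (92.2%) had the same sign there, beside 53.4% of the 381879 bins tested in both. Of these, 20 were called in both contexts, all in the same direction, out of 43 called CHG bins. In the CG bins called higher the median CHG level was 55.6% under desiccation and 41.5% in control, and in those called lower 26.1% under desiccation and 53.6% in control. The same reads can cover both contexts. Read on the strand opposite to the call, CHG had the sign of the CG call in 94 of 123 calls (76.4%), beside 48.4% of all such bins, with a median difference of 7.14 points.

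Of the CHH calls, 352 bins were tested in CG, and 180 had the same sign there (51.1%), beside 50.8% of all bins tested in both. Their CG level was 90.7% under desiccation and 90.6% in control where CHH was called higher, and 90.0% under desiccation and 89.1% in control where it was called lower. CHG had the same sign in 178 of 238 such bins (74.8%), beside 54.8% of all bins. On the opposite strand this was 371 of 752 calls (49.3%), beside 48.8%. No CHH bin was called in CG or CHG as well.

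The called bins clustered. Of the tested CG bins directly beside a called CG bin, 62 of 394 (15.7%) were called with the same sign, and at 200 bp 24 of 332 (7.23%), beside the 0.0362% of all bins. Fragments were up to 300 bp long, so bins this close can share reads. Farther off, 4 of 260 (1.54%) were called at 500 bp and 4 of 209 (1.91%) at 1000 bp, beyond the length of a fragment, where each pair of called bins counts for both of its members. At 5000 bp 0 of 180 and at 10000 bp 2 of 161 were called. No CG bin at any of these distances was called in the opposite direction. In CHG the shares were 9.23% at 100 bp and 7.41% at 500 bp (4 of 54), on a background of 0.00815%. In CHH they were 2.19% at 100 bp (20 of 915) and 0 of 485 at 200 bp, 0 of 229 at 500 bp and 0 of 201 at 1000 bp, where 0.389% of all bins were called.

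**Figure D4:**
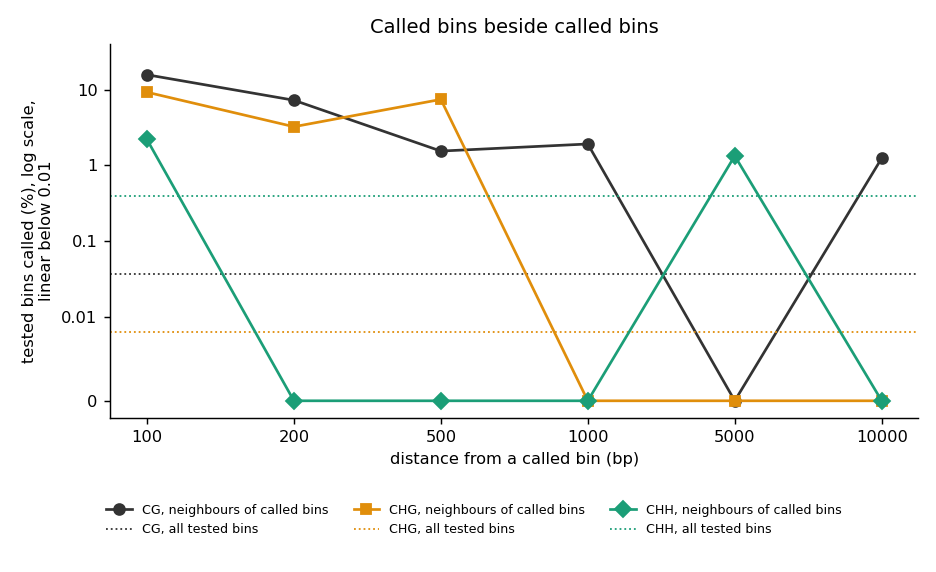
Share of tested bins called in the same direction (%, log scale, linear below 0.01) at 100 to 10000 bp from a called bin, with the share of all tested bins as a dotted line for each context. CG stays above its line of 0.0362% to 1000 bp and CHH is above its own at 100 bp and at 5000 bp (2 of 150 bins).

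Joined at gaps of up to 500 bp between bin starts, 39 of the 168 higher CG bins (23.2%) fell into 17 clusters and 44 of the 133 lower ones (33.1%) into 20 clusters, with up to 4 called bins each. In CHG 4 higher bins formed 2 clusters and 8 lower bins formed 4. In CHH 20 of 595 higher bins (3.36%) formed 10 clusters and 4 of 289 lower bins (1.38%) formed 2, none with more than 2 bins. Most called bins of every context therefore stood alone.

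Chromosomes differed in the direction of their CG calls. Chromosome 5 had 31 higher and 3 lower bins, chromosome 11 had 28 higher and 9 lower, and chromosome 10 had 23 higher and 8 lower. Chromosome 6 leaned the other way with 7 higher and 18 lower, and chromosome 12 had 9 higher and 16 lower. Chromosome 1 had 17 higher and 25 lower bins, but 11 of the lower ones lay in a single stretch described below. Counted as separate loci, where called bins of the same direction with starts up to 500 bp apart are 1 locus, there were 24 higher and 3 lower on chromosome 5, 23 and 8 on chromosome 11, 18 and 7 on chromosome 10, 7 and 14 on chromosome 6, 9 and 12 on chromosome 12, and 15 and 17 on chromosome 1. The rate of CG calls ran from 0.0129% of tested bins on chromosome 9 to 0.0585% on chromosome 11. CHH calls were spread more evenly, from 0.31% on chromosome 10 to 0.431% on chromosome 3, with more higher than lower bins on each of the 12 chromosomes. CHG calls were too few to order, at 1 to 8 per chromosome.

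**Figure D5:**
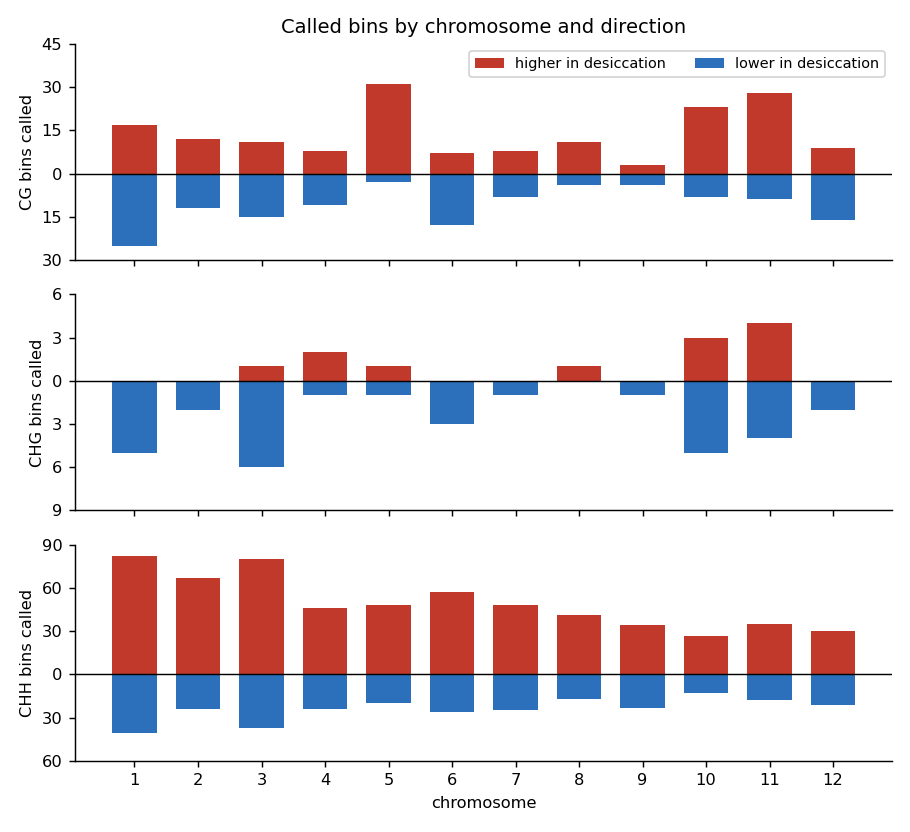
Number of called bins on each rice chromosome, higher under desiccation above 0 and lower below 0, for CG, CHG and CHH. CG direction varies by chromosome (31 higher and 3 lower on chromosome 5), and CHH has more higher bins on every chromosome.

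Along the chromosomes the CG calls showed no strong gradient. With the way from chromosome end to middle divided into 5 equal zones, the CG call rate from the end inwards was 0.0435, 0.0308, 0.036, 0.0382 and 0.0335%. The CHH rate was highest in the outermost zone, at 0.449%, and lowest in the innermost, at 0.285%. Windows of 1 Mb were also ranked by the number of mCs listed in IR64 salinity, a measure of how methylated the neighbourhood is, and divided into 4 equal groups. From the group with the fewest mCs to that with the most, the CG call rate was 0.0449, 0.0285, 0.0293 and 0.0419%, lower in the middle groups than at both ends, and the CHH rate was 0.427, 0.443, 0.384 and 0.305%. Position in genes or transposons was not analysed here, because no annotation of the genome release of these tables was used, and the lists of methylation and stress genes could not be placed.

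The fullest window in CG was the one from 39 to 40 Mb of chromosome 1. It held 11 called bins of 1708 tested (0.644%), all lower under desiccation, and all within 18100 bp between positions 39110501 and 39128600 (MSU release 7 coordinates). Their levels ran from 24.3 to 65.0% under desiccation (median 36.7%), from 31.8 to 77.0% in salinity (median 59.0%) and from 56.8 to 89.0% in control (median 77.8%). Read depth was uneven in many of these bins. The bin starting at 39128501 had 439 reads under desiccation and 231 in control, and the bin starting at 39126001 had 355 and 146. At 39110501 the reads were similar, at 120 and 114. Only the bin starting at 39110601 had fewer reads under desiccation, with 181 and 219. This window was chosen for its count.

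Read depth moved with the CG calls in both directions, with the lower CHG calls and, in the opposite sense, with the higher CHH calls. Over all tested CG bins the desiccation library had 1.06 times the reads of control, over the higher bins 1.35 times and over the lower bins 1.61 times. The median ratio per bin was 1.01, 1.14 and 1.67. The summed reads of the higher bins include the very deep bins of chromosome 10 between 5265401 and 5265700, described below. Desiccation had at least 1.2 times the control reads in 75 of 168 higher (44.6%) and 93 of 133 lower CG bins (69.9%), and in 26.9% of all tested. In CHG the read ratio was 1.74 over the lower bins and 0.932 over the higher ones, beside 1.05 over all tested, and in CHH it was 1.02 and 0.884, beside 0.986. Where desiccation had under 0.5 times the control reads, 0.869% of tested CHH bins were called higher and 0.174% lower. At 0.8 to 1.2 times these shares were 0.248% and 0.118%, and at 2 times or more 0.0959% and 0.128%. In the lower CG bins the methylated reads numbered 11878 under desiccation and 13275 in control, while the unmethylated reads numbered 17735 and 5080, a ratio of 3.49. The lower CHG bins had 2382 methylated reads under desiccation and 2917 in control, and 5893 and 1841 unmethylated reads, a ratio of 3.20. In the higher CG bins the methylated reads numbered 24771 under desiccation and 12113 in control, and the unmethylated ones 7418 and 11797. Lower CG and CHG bins thus had somewhat fewer methylated reads and many more unmethylated reads under desiccation. The ratios of methylated reads were 0.895 and 0.817, beside 1.05 and 1.03 over all tested bins of the 2 contexts. In CHH both kinds of read differed, with 17537 methylated reads under desiccation and 28504 in control, and 26713 and 14738 unmethylated, in the lower bins. The part of unequal depth in these calls was not tested. Among bins with 0.8 to 1.2 times the control reads, tested on their own in an analysis added after the data were seen, 92 CG bins were called, 69.6% of them higher. In CHG only 6 were called there, 66.7% of them higher, against 27.9% of all 43. In CHH 437 were called there, 67.7% of them higher, against 67.3% of all 884. For CG strand calls the limit was set on the reads of the calling strand alone. The opposite strand, at any depth ratio, had the same sign in 76.1% of them.

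Clusters with 3 or more called bins numbered 7, all of them in CG. The 3 in each direction with the most called bins are described, with ties settled by the summed size of the differences, which left out a higher cluster on chromosome 10 between 5265401 and 5265700. Its 3 bins were at 67.1, 64.5 and 50.8% under desiccation and 46.8, 43.4 and 21.9% in control, over 2192 to 2804 reads per bin under desiccation and 729 to 970 in control. Only 4 of the 20 called bins of the 6 described clusters had 0.8 to 1.2 times the control reads, and these 4 were called there too. The longest run higher under desiccation lay on chromosome 5 between 8626801 and 8627300. All 33 shared cytosines there were higher under desiccation, with a level of 92.5% under desiccation, 83.5% in salinity and 43.9% in control. Its 4 bins had levels of 90.1, 91.2, 97.1 and 92.3% under desiccation and 51.0, 40.8, 36.6 and 38.5% in control (adjusted p from Fisher's exact test between 8.41e-08 and 3.49e-11). The nearest tested bins on either side differed less, the one starting at 8626601 with 96.0% under desiccation and 95.3% in control, and the one starting at 8627401 with 94.4% and 83.9%. Depth was uneven, with 561 reads under desiccation and 246 in control, and 28 of the 33 cytosines were on the plus strand. No cytosine of this cluster was listed in N22 or Pokkali.

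On chromosome 4, between 19098601 and 19098900, 24 of 27 cytosines were higher. The level was 52.3% under desiccation, 35.9% in salinity and 20% in control, over 669 and 1062 reads in the compared libraries. Much of the difference was on the plus strand, at 41.5% under desiccation and 12.5% in control, with 73.2% and 58.7% on the minus strand. The third higher cluster, on chromosome 10 between 12256701 and 12257000, had 23 of 24 cytosines higher and none lower. There the level was 94.5% under desiccation and 64.9% in control over similar depth (291 and 308 reads). It was 84.7% in IR64 salinity and between 92.9% and 95.2% in the 4 N22 and Pokkali samples, so that IR64 control was the lowest of the 7 samples.

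The lower clusters shared another profile. On chromosome 12, between 4677201 and 4678000, 52 of 59 cytosines were lower, with a level of 43.3% under desiccation, 43.2% in salinity and 71.0% in control. Methylated reads numbered 1008 under desiccation and 964 in control, and unmethylated reads 1318 and 394. On chromosome 2, between 11196001 and 11196300, the level was 30.5% under desiccation, 42.5% in salinity and 70.7% in control, with 9 of 11 cytosines lower. Here 117 methylated and 266 unmethylated reads stood under desiccation, against 152 and 63 in control. On chromosome 1, between 18686701 and 18687400, it was 54.7% under desiccation, 60.1% in salinity and 79.9% in control, with 40 of 52 cytosines lower. Methylated reads there numbered 763 under desiccation and 671 in control, and unmethylated reads 633 and 169. Very deep bins of low CG level lay near the chromosome 1 and chromosome 12 clusters. The bin starting at 18686601 had 7.3% under desiccation and 9.67% in control, over 973 and 579 reads. The bin starting at 4678401 had 4.73% and 6.4%, over 1310 and 890 reads. In all 3 of these clusters the salinity level was nearer to desiccation than to control, but with fewer reads in control nothing is read from this. Outside IR64, Pokkali salinity was lower than Pokkali control in each (60.6% and 83.1%, 51.4% and 85.5%, 76.0% and 92.0%, in the order of the clusters), while N22 desiccation and N22 control stood at 48.7% and 50.5%, 48.7% and 38.7%, and 71.4% and 68.3%. Within these clusters 3 CHG bins were called as well, all lower, for instance on chromosome 2 at 25.7% under desiccation and 62.7% in control. Bins in the clusters were not uniform: the chromosome 12 bin starting at 4677301 had 94.0% under desiccation and 97.7% in control, between called bins at 36.3% and 75% and at 46.8% and 75.2%.

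Single bins were named where the difference was largest among called bins with at least 50 reads in each library, at least 10 on each strand and the same sign on both strands, without very deep cytosines. Of the called bins with such reads on both strands, 192 of 202 in CG, 29 of 31 in CHG and 468 of 529 in CHH had the same sign on both, which the call itself favours because it sums the strands. The largest CG fall among the named bins was on chromosome 1 at 39110501 to 39110600, in the window described above. There 35 of 120 reads were methylated under desiccation (29.2%, 95% Wilson interval 21.8 to 37.8) and 91 of 114 in control (79.8%, 71.5 to 86.2). All 6 cytosines were lower, the plus strand had 32.3% under desiccation and 83.3% in control, the minus strand 28.1% and 78.2%, and the adjusted p was 3.01e-11. The level in salinity was 60.5%, and CHG fell in the same bin to 26.1% under desiccation, against 66.1% in control. The next fall was on chromosome 10 at 7984001 to 7984100, at 33.0% under desiccation, 47.6% in salinity and 79.3% in control, over 188 and 111 reads in the compared libraries.

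The largest CG rise among the named bins was on chromosome 11 at 18948001 to 18948100, where 90 of 98 reads were methylated under desiccation (91.8%, 84.7 to 95.8) and 32 of 74 in control (43.2%, 32.6 to 54.6). All 9 cytosines were higher, and both neighbouring bins were higher too, by 28.5 and 25.7 points, without being called. On chromosome 10 at 9935201 to 9935300 the level was 94.5% under desiccation, 90.1% in salinity and 51.3% in control. All 12 cytosines of that bin were higher, and its CHG level was 80.9% under desiccation and 41.5% in control. The N22 samples were at 96.6% under desiccation and 99% in control there, and the Pokkali samples at 24.5% under salinity and 23.3% in control over 3 listed cytosines.

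In CHG the named rises were on chromosome 10 at 2803401 to 2803500, with 72.5% under desiccation and 29.5% in control, and on chromosome 8 at 4253501 to 4253600, with 95.5% and 54.5%. The named falls were on chromosome 9 at 6014101 to 6014200, with 43.8% under desiccation and 85.0% in control, and on chromosome 12 at 24683501 to 24683600, with 46.4% and 86.0%. Their levels in salinity were 50, 76.2, 55.9 and 59.5%. Adjusted p-values ran from 2.78e-07 to 0.00129 by the same Fisher's test, and the CG level of each bin moved the same way, by 5.26 to 15.3 points in the rises and by -26.2 and -10.8 points in the falls.

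In CHH the named rises reached 84.0% under desiccation, against 37.6% in control, on chromosome 4 at 33529801 to 33529900, and 81.0% under desiccation, against 36.4% in control, on chromosome 10 at 20393801 to 20393900. The named falls were both on chromosome 5, at 15690801 to 15690900 with 34.4% under desiccation and 81.2% in control, and at 8615201 to 8615300 with 26.2% and 71.2%. They rested on 50 to 61 reads under desiccation and 52 to 85 in control, summed over 5 to 8 cytosines. The first of the rises had a CG level of 86.5% under desiccation and 91.0% in control, the opposite direction to its CHH difference. The other contexts went the same way as CHH in the second rise, with CHG at 68.3% under desiccation and 46.2% in control. They also did so in the first fall, with CG at 58% and 71.4%. The second fall had no value in another context.

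The other 2 comparisons of the series nearest to this one were run in the same way. IR64 salinity against the same IR64 control gave 164 CG bins (0.02% of tested), 14 CHG bins (0.00275%) and 902 CHH bins (0.418%), with 68.9%, 42.9% and 59.0% of them higher under salinity. It shares the control library with the desiccation comparison, so no overlap was drawn from it. N22 desiccation against N22 control shares no library with it and gave 362 CG (0.0399%), 117 CHG (0.0192%) and 1657 CHH bins (0.758%), of which 4.97%, 6.84% and 8.57% were higher under desiccation. The direction of the calls thus differed between the cultivars, and this difference was not tested.

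The IR64 calls were then read in N22. Of the called IR64 CG bins, 233 were tested in N22 as well, and 98 had the same sign there (42.1%, 95% Wilson interval 35.9 to 48.5), beside 48.9% of all 675885 bins tested in both cultivars. The median difference was 29.0 points in IR64 and, in the IR64 direction, -1.11 points in N22. In CHG 20 of 35 had the same sign (57.1%, 40.9 to 72.0), beside 49.5%, and in CHH 313 of 699 (44.8%, 41.1 to 48.5), beside 48.6%. Bins called in both cultivars numbered 6 in CG, which was 2.58% of the IR64 calls tested in both and 2.8% of the 214 N22 calls, where 0.0317% of all bins tested in both were called in N22. In CHH they numbered 18, which was 2.58% of the IR64 calls and 1.33% of the 1353 N22 calls, where 0.941% of all were called in N22, and in CHG 0. The sign was the same in 3 of the 6 CG bins and 7 of the 18 CHH bins.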

How the data were processed

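Methylation calls of 7 rice whole genome bisulphite sequencing libraries were used, mainly IR64 desiccation and IR64 control (1 library each). For the control libraries, the authors aligned reads with Bismark to MSU release 7, dropped clonal and ambiguously mapped reads and used methylKit to call mCs, by a binomial test at p 0.001 and a depth of at least 5. For the stressed libraries the build, settings and pooling are not given in the sources used here. The tables the authors deposited hold, for each strand and cytosine, depth as a count of reads and level as a percent of those reads, neither normalized. Only mCs called methylated were listed. Methylated reads were depth multiplied by level, whole at 100% of positions.

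Reads at cytosines listed in both libraries were summed in 100 bp bins with at least 3 shared mCs. Fisher's exact test (two-sided), Benjamini-Hochberg adjustment per context, a difference of 20 points and an adjusted p of 0.01 gave the calls. Intervals are 95% Wilson intervals. Clusters joined called bins of 1 context and direction with starts up to 500 bp apart. Bins were named by the 2 largest differences in each direction and context (50 reads per library, 10 per strand, same sign on both strands, no cytosine above the 99th percentile of depth), and clusters, 3 in each direction, by the number of called bins, with ties settled by the summed absolute difference. Members, lists and rules were chosen with earlier results of these data known. Python 3.11.15, numpy 2.4.6, pandas 2.3.3 and numba 0.67.0 were used, and the test was checked on simulated reads. A total of 11 alternatives were planned and 1 was added after the data were seen.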

Additional observations from a re-analysis of the deposited data

Results flagged for a closer look

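The pooled CHH level differed between the cultivars in direction under desiccation. Over the mCs shared with their own control it was 0.413 points higher under desiccation than in control in IR64 (35.68% and 35.27%), and in N22 the difference was -1.64 points (38.08% under desiccation and 39.72% in control). There was 1 library per group, so that the difference between the cultivars was not tested.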

How the results depend on the processing

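The numbers of called bins are given for CG, CHG, CHH and the 3 contexts summed, beside 301, 43, 884 and 726. A difference of 30 points gave 141, 21, 276 and 222, and thinning both libraries to equal depth 172, 17, 488 and 361. With 1 cytosine per strand 1, 2, 1 and 11 were called, and 100% of the CHG calls were higher. Each library's own listed cytosines gave 1278, 188, 1448 and 23389, so that the counts rest on the limit to shared cytosines. Bins with equal depth (0.8 to 1.2 times, added after the data were seen) gave 92, 6, 437 and 273, with 66.7% of the CHG calls higher. A minimum depth of 10 gave 542 in CHH and 446 summed, with 44.4% of the CG calls higher, and a difference of 10 points 1371 and 1254. Requiring 5 shared mCs, leaving out extreme depth, an error rate of 1%, a shift of 50 bp and the mean over cytosines kept all 4 counts within 1.5 times.

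The level differences (desiccation minus control, in points) in CG, CHG and CHH were -0.437, -0.906 and 0.257 at a minimum depth of 10, 0.351, 0.0987 and 0.806 without extreme depth, 0.336, -0.0468 and 0.512 after thinning, -0.0829, -0.45 and 0.602 at an error rate of 1%, 0.259, -0.0869 and 0.683 as a mean over cytosines, and 0.423, -0.583 and 0.104 over each library's own cytosines. The CG sign thus depended on the setting, and the cause was not tested.

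The share of CG strand calls with the same sign on the opposite strand was between 71.4% and 77.5%, that of CHH between 46.1% and 51.4%, and that of CHG, 75% of 36 calls, between 50% (4 of 8, equal depth on the calling strand) and 76.3%, under the settings that gave more than 1 strand call. The 12 named bins kept their sign wherever they could be tested, on reads drawn from those behind the calls. Of them 0 were called with 1 cytosine per strand, 7 after thinning (4 CG, 2 CHG and 1 CHH), 10 at an error rate of 1% (2 of 4 in CHH) and 3 of 4 testable at a minimum depth of 10. The 6 described clusters, with 20 called bins, had 1 with 1 cytosine per strand, 13 after thinning, 13 at a difference of 30 points, 14 at a minimum depth of 10, 15 with 5 shared mCs, where the chromosome 2 cluster had none, 15 without extreme depth and 4 among bins of equal depth, where 4 of the 20 could be tested and 4 clusters had none. Shifted bins and own listed cytosines gave no value for named bins. No paired analysis was possible because each group had 1 library. With a single library per group, depth limits only the counting error, and a difference between seedlings or batches cannot be told apart from one of treatment.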
